A study of Saccharomyces cerevisiae with 12 samples.

Results

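Total RNA of sporulating budding yeast (Saccharomyces cerevisiae, strain SK1) taken 5.5 h into sporulation was set against RNA of time zero on 2 spotted arrays with the dyes exchanged. SK1 is a laboratory background that sporulates fast and in near synchrony. The 5.5 h sample is 1 of 12 samples of a time course from 0.0 to 6.0 h, and its arrays are 2 of 24. Cells of both times are labelled with the strain SK1 and with no mutation, drug or medium. Cells of 6 synchronized cultures grown on the same day were pooled into each sample, so the arrays carry 1 pooled sample of each time. The A array held the 5.5 h RNA in Cy5 and time-zero RNA in Cy3, and the B array held them the other way round.

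All values are log2 ratios of 5.5 h over time zero, A array first. Of 6293 genes on the array, 6241 had a value on both. With 1 pooled sample there is no spread between cultures, so no test or p-value is given; the 2 arrays show how far the labelling and hybridisation repeat on the same RNA. A gene is called rising when both arrays were at 1 or above (2-fold) and its 5.5 h channel was brighter than the 95th percentile of the blank spots on both. It is called falling when both were at -1 or below and its time-zero channel passed the blanks on both. "Rose" and "fell" mean only that. An array reads the RNA of all cells together, so more cells in a stage and more RNA per cell cannot be told apart.

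When a starved diploid yeast cell sporulates, it copies its DNA, recombines the chromosomes and passes through both meiotic divisions before it builds spores inside the old cell. The transcription factors Ime1 and then Ndt80 drive the early and the middle genes. The middle genes hold the cyclins of the divisions and the proteins that grow a new membrane, the prospore membrane, from the spindle poles around each nucleus. A wall of mannan, glucan, chitosan and dityrosine is then laid down inside that membrane.

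The 2 arrays differed in quality before any gene is considered. On the A array, 30.4% of genes were above the blanks in the 5.5 h channel and 17.6% in the time-zero channel, the lowest time-zero share of the 24 arrays. On the B array the shares were 89.2% and 58.5%. Over genes the arrays correlated with r = 0.51 (Spearman 0.421, n = 6241), and the ratios spread more widely on B (SD 1.843) than on A (1.302). Genes are not independent replicates, and both arrays share the same RNA. On the arrays that set 0.0 h RNA against time zero, the spread was 0.554 on A and 0.271 on B, with r = 0.167.

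Of the 6241 genes, 4011 (64.3%) had the same sign on both 5.5 h arrays, 2042 above and 1969 below 0, whereas the other 2230 differed in sign. The 0.0 h arrays, which set time zero against itself, gave 56.2% with the same sign. With the brighter channel above the blanks on both arrays, 768 genes (12.3%) were up and 494 (7.92%) were down. Past the 2-fold limit as well, 397 genes rose (6.36% of those measured) and 182 fell (2.92%). The same rule called 0 rising and 0 falling genes among 6284 on the 0.0 h arrays. Those arrays spread less and had 84.5% (A) and 78.7% (B) of genes above the blanks in the time-zero channel. They therefore do not measure how often the rule would call falsely on the 5.5 h arrays. The 0.0 h A array by itself, however, read past 2-fold in the same direction for 21 of the rising and 10 of the falling genes, and as far as their 5.5 h A value for 6 and 2 of them; the 0.0 h B array did so for 0. Those among the genes below are given with that reading. Requiring both arrays sets these numbers: by the same limits the A array alone would give 650 rises and 305 falls and the B array alone 1607 and 1259.

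**Figure D1:**
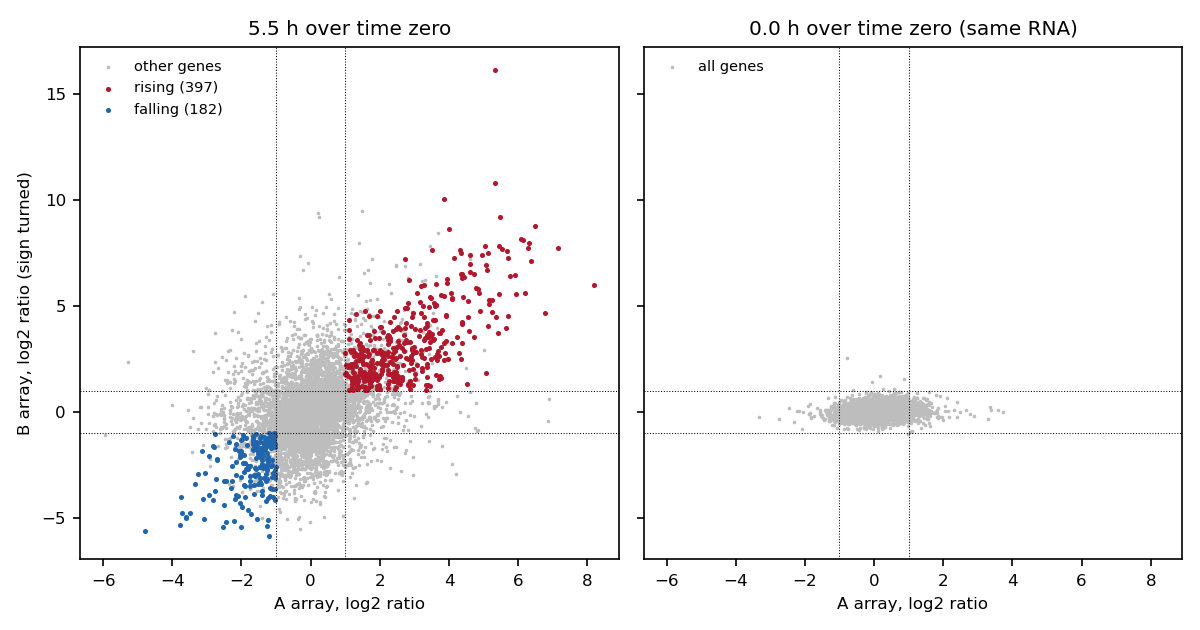
Log2 ratio on the A array (x) against the B array (y, turned by sign), 1 point per gene, for 5.5 h over time zero (left) and for 0.0 h over time zero (right). Dotted lines mark 2-fold. At 5.5 h the outer corners hold 694 genes past 2-fold up and 382 down on both arrays, of which the 397 rising and 182 falling genes also passed the blanks. No gene is past 2-fold the same way on both arrays at 0.0 h.

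The median rising gene was at 2.50 on A and 2.77 on B, and the median falling gene at -1.56 and -2.53. B gave the larger change for 240 of the 397 rising and 143 of the 182 falling genes. The time-zero channel was above the blanks on neither array for 180 rising genes, on 1 for 182 and on both for 35. For those 180 only an approximate lower bound of the fold can be given, and each that is named below has its bound, written as "at least", beside its ratios. The bound is taken on the mean of both arrays, with the dimmest value above the blanks as the floor, so it need not hold on each array. PFS1 and MLH3, for example, had 48760 and 49146 at 5.5 h on A, below the time-zero limit of 74005 there. The sizes of rises and falls are therefore not comparable. The bounds ran from 1.06-fold to 24.6-fold, with a median of 4.60. The falling genes could be measured on both sides more often, since the 5.5 h channel was above the blanks on both arrays for 130 of them, on 1 for 51 and on neither for 1. At least 1 spot marked S, a letter that sits on bright spots, went into 127 of the rising and 58 of the falling genes. Near the limit, MCM5 (0.994 and 2.46) and DLT1 (1.55 and 0.996) were just outside the rising genes and YHR033W (1.00 and 2.79) and HAP3 (1.004 and 1.80) just inside. HXT7 (-2.61 and -0.987) and MIC60 (-0.999 and -2.16) were just outside the falling genes and EXG1 (-1.01 and -2.61, with -1.19 on the 0.0 h A array) and YKL097C (-1.19 and -1.01) just inside.

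The 15 genes with the largest rise on the less changed array held 9 members of the prospore membrane and spore wall lists. None of the 15 had a time-zero channel above the blanks on either array, and their bounds ran from at least 5.03-fold to at least 17.4-fold. SPR1, the sporulation exo-1,3-beta-glucanase, had intensities of 1259586 on A and 166304 on B in the 5.5 h channel, against 11441 and 262 in the time-zero channel. Its ratios were 6.49 and 8.78, and the bound was at least 11.8-fold. SPR2, a putative spore wall protein gene, had 3121520 and 373149 at 5.5 h, against 31520 and 1694 at time zero, with ratios of 6.27 and 7.75 and at least 17.3-fold. In both genes each 5.5 h value was far above each time-zero value on the same array.

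SPS4, a sporulation-specific gene, was at 6.32 and 7.96 (at least 12-fold). SMA1, needed for prospore membrane assembly, was at 8.20 and 6.00 (at least 12.7-fold), the largest A value of the 15. SPO20, the sporulation form of the plasma membrane fusion protein Sec9, was at 5.67 and 7.62 (at least 8.26-fold), and SPO19, a prospore membrane gene, at 5.93 and 5.58 (at least 5.55-fold). SSP2, which acts in spore wall assembly together with the kinase Smk1, was at 5.77 and 6.42 (at least 9.33-fold). CDA2, a chitin deacetylase that makes chitosan, was at 5.53 and 7.69 (at least 5.03-fold). LDS1, a lipid droplet gene of outer wall formation, was at 5.72 and 7.27 (at least 8.68-fold), and IRC18, an outer spore wall gene, at 6.20 and 5.62 (at least 7.37-fold).

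Of the others, UBC11, a ubiquitin-conjugating enzyme like that of mitotic cyclin destruction in animals, was at 6.36 and 7.13 (at least 17.1-fold). YOL024W was at 6.08 and 8.16 (at least 17.4-fold), YDL114W at 6.15 and 8.10 (at least 9.30-fold), YNL019C at 5.91 and 6.44 (at least 8.97-fold) and YNL205C at 7.15 and 7.74 (at least 8.56-fold).

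Among the regulators of meiosis, 4 of 20 rose (20.0%, beside 6.36% of all genes) and 0 fell. The median was 0.71 over the list, against -0.01 over all genes. NDT80 itself, the activator of the middle genes, was at 3.62 and 6.40 but is not among them. Its 5.5 h intensity was 763216 on B, above the blanks, and 21739 on A, below the limit of 48523 there; its time-zero intensities were 5998 and 2071. SLZ1, a cofactor of the messenger RNA methyltransferase of meiosis, rose by 5.11 and 6.69 (at least 10.7-fold). IME2, the meiotic kinase, was at 3.13 and 3.57 (at least 2.42-fold). On the 0.0 h A array IME2 read 2.41, RIM4 1.58 and SLZ1 1.20. MUM2, another part of the methyltransferase complex, was at 1.41 and 3.16, and RIM4, an RNA-binding repressor of translation, at 1.33 and 1.06, below its own 0.0 h A reading on both arrays.

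The remaining regulators are given by value. IME1, the activator of the early genes, was at 0.03 and -0.48 with both channels above the blanks on both arrays. SUM1, the repressor of middle genes, was at 0.46 and 0.51, and UME6, the DNA-binding partner of Ime1, at -0.28 and -0.09. On A both channels of SUM1 and UME6 were below the blanks, so their A ratios carry no information on size. The kinase gene RIM11 was at 0.85 and 2.08, IDS2 at 1.44 and 2.995, KAR4 at 1.07 and 2.50 and IME4, the methyltransferase, at 0.81 and 1.66. RIM11 was above 0 on both arrays but under the limit on A. Both A channels of IDS2, KAR4 and IME4 were below the blanks. Their A ratios therefore carry no information on size, and only their B values can be read. RIM15 was at -1.51 and -0.21, SIN3 at -1.18 and 0.31, RPD3 at 0.45 and 0.05, RIM101 at 1.17 and -0.08, and RIM8 at 0.04 and 1.49. MCK1 was at 0.26 and 1.07, SWE1 at -0.65 and 0.39, and SIC1, an inhibitor of the cyclin-dependent kinase, at -0.52 and -0.80. Both A channels of RIM15, SIN3, RIM8 and SWE1 were also below the blanks, so their A ratios carry no information on size either.

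Genes of the meiotic divisions were up. In this list 10 of 26 measured members rose and 0 fell, 24 of 26 were above 0 on both arrays, and the median was 2.95. SPO13, which keeps sister chromatids together in the first division, had 98605 and 1571342 at 5.5 h, against 6428 and 6660 at time zero; its ratios were 4.13 and 7.29 (at least 7.22-fold). PDS1, the securin that holds back chromosome separation, was at 4.39 and 6.49 (at least 4.29-fold). The B-type cyclins CLB4 and CLB5 were at 4.37 and 6.32 (at least 6.41-fold) and at 4.57 and 3.84 (at least 10.9-fold). CDC5, the polo kinase that acts on exit from prophase, was at 3.15 and 5.16 (at least 5.31-fold).

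The same list held both sides of the anaphase-promoting complex. AMA1, its meiosis-specific activator, was at 2.83 and 6.21 (at least 5.29-fold) and read 3.30 on the 0.0 h A array. ACM1, an inhibitor of its vegetative form, was at 3.63 and 1.73 (at least 3.72-fold). CDC14, the phosphatase of mitotic and meiotic exit, was at 2.79 and 3.28, CSM1, a monopolin subunit, at 2.09 and 3.79, and IPL1, the aurora kinase, at 2.22 and 3.54 (at least 1.53-fold). Members that passed the fold on both arrays but whose 5.5 h channel was above the blanks on B alone include CLB1 (1.40 and 7.98), MAM1 (2.26 and 6.02), CLB6 (1.71 and 5.29), SPO12 (3.45 and 4.09) and CDC20 (3.24 and 3.78). CLB3 had no value on B, where both channels are listed at 0, and was at 3.54 on A.

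Of 29 prospore membrane genes 15 rose, 0 fell, 28 were above 0 on both arrays, and the median was 4.34. In this list 1 member had a time-zero channel above the blanks on both arrays, and in the division list 0, so the medians of the lists do not rank them. Beside SMA1, SPO20, SPO19 and SSP2 above, PFS1 was at 4.95 and 7.38 (at least 6.61-fold) and SPO73 at 5.25 and 4.72 (at least 14.0-fold). The meiotic kinase SMK1, which acts in wall formation, was at 4.78 and 5.84 (at least 8.12-fold), and GIP1, the meiosis-specific partner of phosphatase Glc7, at 3.95 and 6.09 (at least 7.12-fold). Of the leading edge and spindle pole plaque genes, MPC54 was at 3.59 and 4.35 (at least 3.73-fold) and ADY4 at 2.94 and 4.47 (at least 5.87-fold), whereas SPO21 (1.93 and 5.31), SPO74 (1.70 and 6.07), SSP1 (2.48 and 6.92) and ADY3 (1.57 and 4.33) were past the fold but dim on A. SPR3, a septin of the prospore membrane, was at 1.49 and 9.47 and dim on A. DON1, of the leading edge, was the exception in sign, at 4.82 and -0.93. SPS1, a kinase of the membrane's closure, was at 6.02 on A and had no value on B.

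Spore wall genes had the highest share among the 3 spore lists, with 16 of 25 rising, 0 falling and a median of 3.74. GAS2, a glucanosyltransferase of the glucan layer, had 297662 and 949991 at 5.5 h, against 6580 and 1408 at time zero. It was at 5.47 and 9.19 (at least 9.68-fold). SPS2, another wall gene, was at 5.13 and 7.5 (at least 5.05-fold), OSW1 at 4.33 and 7.65 (at least 5.59-fold) and CRR1, a glucanase-like gene, at 4.55 and 4.49 (at least 13.5-fold). DTR1, the transporter of dityrosine precursors, was at 4.06 and 5.62 (at least 4.58-fold), whereas the genes of the 2 enzymes that make the precursor, DIT1 (0.67 and 4.29) and DIT2 (1.68 and 4.60), had a 5.5 h channel above the blanks on B alone.

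The late gene SPS100 was not called and was at 1.29 and -2.60. SKT5 and CHS3, which act in chitin synthesis also during growth, were at -0.83 and -1.13 and at 0.29 and 1.00. LDS2, a close relative of LDS1, was at 6.88 on A and 0.60 on B. On the A array alone, 4 more wall genes were high and had no B value: CDA1 at 5.82, LOH1 at 5.47, GAS4 at 4.60 and SPS22 at 4.24. Both channels of CDA1 and LOH1 are listed at 0 on B. The B ratios of several rest on a very dim time-zero channel, with an intensity of 262 for SPR1, 548 for SPS2 and 1408 for GAS2.

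**Figure D2:**
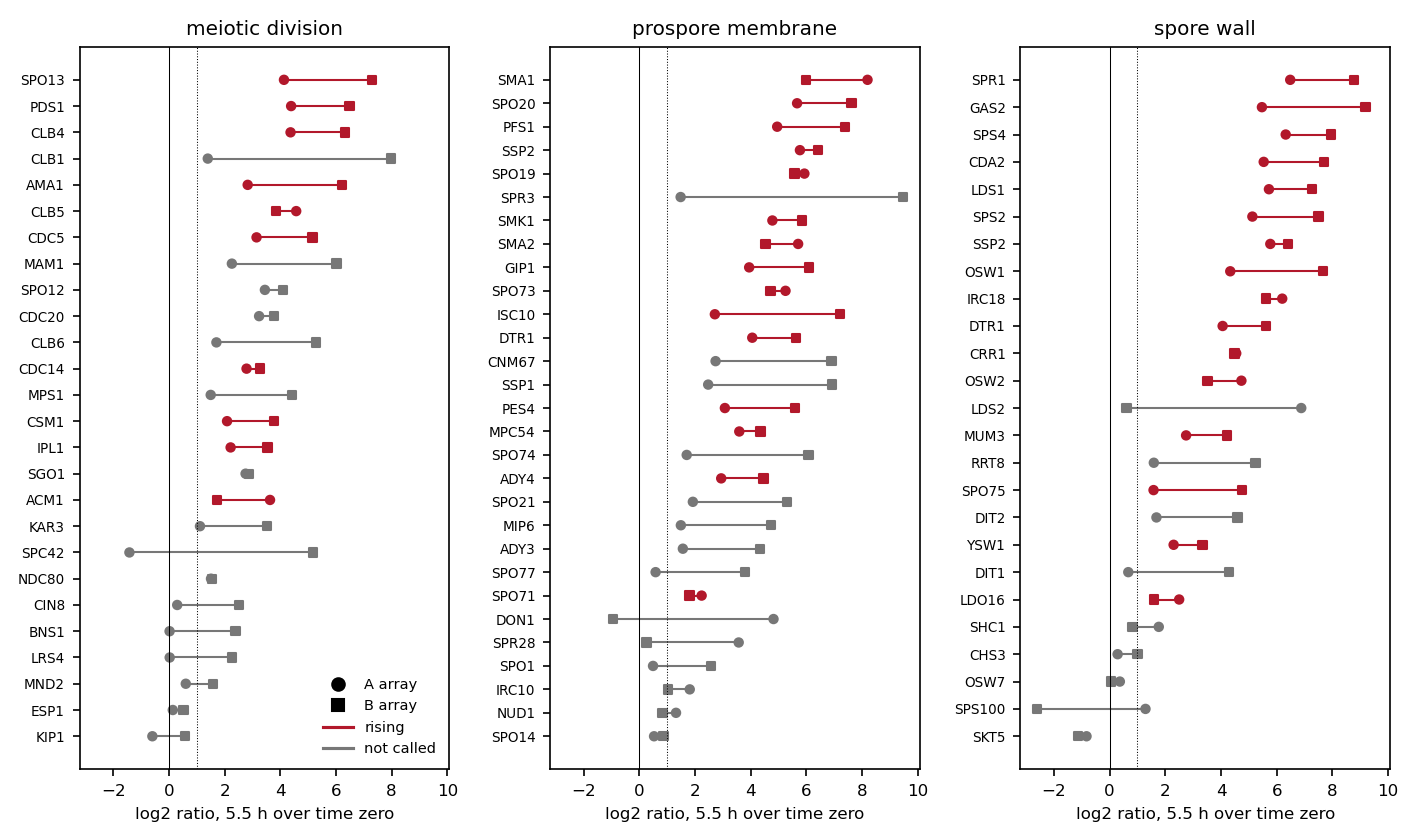
Log2 ratios of 5.5 h over time zero on the A array (circles) and the B array (squares) for each member with both values, joined by a line, in 3 spore lists. Red members are rising; grey members missed the limit or had a 5.5 h channel that was not above the blanks on both arrays, as in CLB1, SPR3 and SSP1.

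Of 35 recombination genes of early meiosis 4 rose (11.4%, beside 6.36% of all genes) and 0 fell, with a median of 1.17. Only 7 members had a 5.5 h channel above the blanks on both arrays, so few could be called rising. NDJ1, a telomere protein of meiotic pairing, was at 3.93 and 6.29 (at least 12.3-fold), MEI5 at 3.48 and 5.39 (at least 6.83-fold), and DMC1, the meiotic strand-exchange protein, at 2.83 and 5.14 (at least 4.59-fold). MLH3, of crossover resolution, was at 2.93 and 2.93 (at least 2.12-fold). On the 0.0 h A array NDJ1 read 2.88, MEI5 2.41, DMC1 2.15 and MLH3 1.16. SPO11, whose product makes the breaks that start recombination, was at -0.11 and 4.45, and ZIP1, of the synaptonemal complex, at -1.19 and 0.23. In these last 2 genes the arrays differ in sign, and nothing about their direction can be read.

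Cohesion genes gave 0 of 11 calls, with a median of -0.15; REC8, the meiotic cohesin, was at 0.27 and -1.30, and no member was above the blanks in the 5.5 h channel on both arrays. SGO1, the shugoshin that protects centromeric cohesion, was at 2.75 and 2.87 but dim on A. Of 43 DNA replication genes 3 rose and 0 fell: PSF3, a GINS subunit, at 3.45 and 3.28, RFC4 at 1.20 and 2.07 and RFC2 at 1.33 and 1.32, both subunits of the clamp loader. That share is close to the 6.36% of all genes.

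Of 10 histone genes 8 rose, with a median of 2.24. HHF2 was at 4.39 and 4.15 (at least 5.62-fold), HHF1 at 3.84 and 3.24 (at least 7.41-fold), HTB2 at 3.92 and 3.36 (1.19 on the 0.0 h A array), HTZ1, the variant H2A.Z, at 3.98 and 2.49, and HTA2 at 2.05 and 1.94. The H3 genes HHT1 and HHT2 were at 2.50 and 1.39 and at 1.88 and 1.64 (at least 3.05-fold), and HHO1, the linker histone, at 1.10 and 3.87. The members not called were HTA1 at 2.52 and -0.26 and HTB1 at 2.36 and -0.47. Both copies of H3 and of H4 have near-identical coding sequences, so their spots may read each other's RNA and the pairs are not independent.

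**Figure D3:**
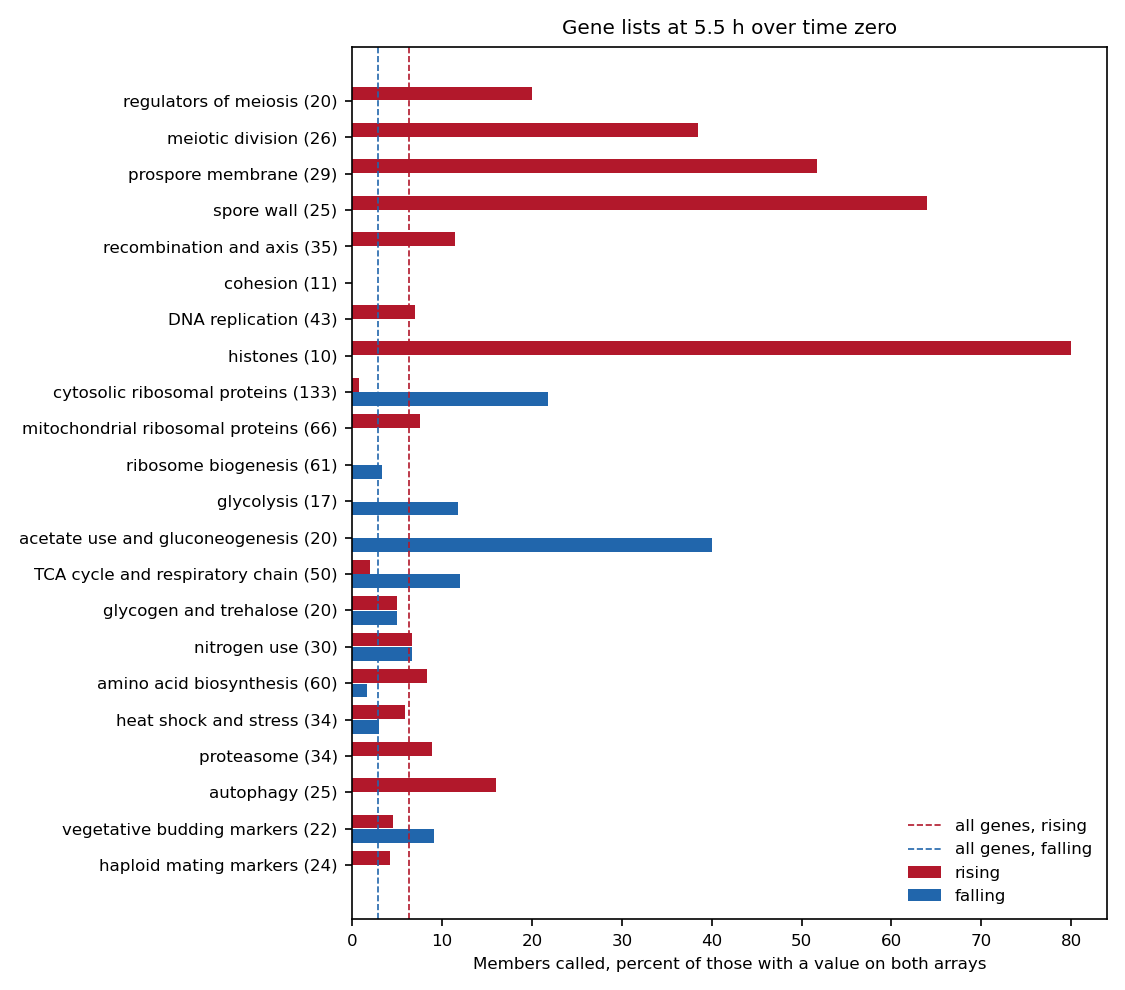
Percent of the members of each of 22 gene lists that rose (red) or fell (blue) at 5.5 h over time zero, with the number measured on both arrays in brackets and the shares of all genes as dashed lines (6.36% and 2.92%). The histone, spore wall, prospore membrane and meiotic division bars are the longest red ones, and the acetate use bar is the longest blue one.

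The 15 largest falls included genes of transport, the cell wall and energy metabolism, and in all of them the time-zero channel was above the blanks on both arrays. URA1, the dihydroorotate dehydrogenase of pyrimidine synthesis, had 25472 and 31894 at 5.5 h, against 577772 and 1143285 at time zero. It was at -4.80 and -5.65, the largest fall. CLN3, the G1 cyclin that starts a mitotic cycle, had 51891 and 145048 at 5.5 h, against 551448 and 2055130 at time zero, and was at -3.76 and -4.05.

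The cell wall genes among them were TIP1 at -3.78 and -5.33, TOH1 at -3.71 and -4.78, NCW2 at -3.60 and -5.03 and PIR1 at -3.08 and -5.06. In each of them the B array gave the larger fall. Transporters included PUT4, the proline permease, at -3.48 and -4.76, BAP3, an amino acid permease, at -3.04 and -2.89, ATO2, of the ammonia and acetate transporter family, at -2.75 and -3.77, and FAT3 at -2.95 and -3.96. On the 0.0 h A array PUT4 read -1.47, ATO2 -1.18 and NCW2 -1.17. CYB2, the lactate dehydrogenase of mitochondria, was at -3.34 and -3.40.

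Of 20 genes of acetate use and gluconeogenesis 8 fell and 0 rose, with 16 below 0 on both arrays and a median of -1.31. FBP1, fructose-1,6-bisphosphatase, had 28516 and 63804 at 5.5 h, against 287932 and 1532370 at time zero, and was at -3.60 and -4.96. SFC1, the succinate-fumarate carrier that links the glyoxylate cycle to the mitochondrion, was at -3.12 and -4.10, and ALD6, which makes acetate, at -2.83 and -4.18. JEN1, the lactate and pyruvate transporter, was at -2.15 and -2.97, MLS1, malate synthase, at -2.01 and -3.07, and MDH2, cytosolic malate dehydrogenase, at -1.53 and -3.43. ACH1 (-2.25 and -1.13) and IDP2 (-1.32 and -1.42) fell by less.

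Of 50 genes of the tricarboxylic acid cycle and respiratory chain, 6 fell and 1 rose, with a median of -0.45. The subunits ATP1, ATP2 and ATP4 of the ATP synthase were at -3.25 and -2.93, at -2.75 and -3.16 and at -2.70 and -2.29. QCR2, of the cytochrome bc1 complex, was at -1.67 and -1.34, SDH1, of succinate dehydrogenase, at -1.57 and -2.73, and CIT3, a citrate synthase, at -1.21 and -1.54. IDH2, of isocitrate dehydrogenase, went against its list at 1.56 and 1.63, with both channels above the blanks on both arrays. In glycolysis 2 of 17 fell (11.8%, beside 2.92% of all genes) and 0 rose. These were PYK2, a pyruvate kinase, at -1.58 and -1.04 and ADH1, alcohol dehydrogenase, at -1.04 and -2.98. A fall needs a time-zero channel above the blanks on both arrays, which 13 of the 17 had, beside 949 of all 6241 genes. The larger share is therefore not read as a result about glycolysis. The median of the glycolysis list was -0.02 on A and -3.09 on B, so its shift rests on the B array.

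Genes for cytosolic ribosomal proteins were lower: 29 of 133 fell, 1 rose and 106 of 133 were below 0 on both arrays, with a median of -0.72 on A and -2.30 on B. RPP0, of the ribosomal stalk, had 399672 and 58522 at 5.5 h, against 1839404 and 1985517 at time zero, and was at -2.53 and -5.43. The other stalk genes RPP1A and RPP2B were at -2.17 and -4.14 and at -2.01 and -5.44. RPL12A was at -1.99 and -4.50, RPL27A at -1.93 and -3.44 and RPL14B at -1.76 and -3.49 (-1.13 on the 0.0 h A array). RPL15B was the 1 that rose, at 1.98 and 1.17. Many of these genes come as pairs of close copies, so the spots of a pair may share RNA.

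Ribosome biogenesis genes had a median of -1.04 and 42 of 61 were below 0 on both arrays. Of the 61, 2 fell (3.28%, near the 2.92% of all genes) and 0 rose. These were NOP1, the methyltransferase of box C/D particles, at -2.11 and -4.00 and NHP2, of box H/ACA particles, at -1.04 and -1.51. Only 3 of the 61 had a time-zero channel above the blanks on both arrays, so few could be called. Of 66 mitochondrial ribosomal protein genes 5 rose (7.58%, near the 6.36% of all genes) and 0 fell, with a median of 0.51. These were MRPS17 (4.44 and 6.38, at least 3.38-fold), MRPL27 (3.35 and 4.19, at least 4.52-fold), MRPL37 (3.67 and 2.43), MRP51 (2.41 and 1.85) and MRP8 (5.23 and 5.29, at least 13.0-fold). MRP8 stands in the list by its symbol only.

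**Figure D4:**
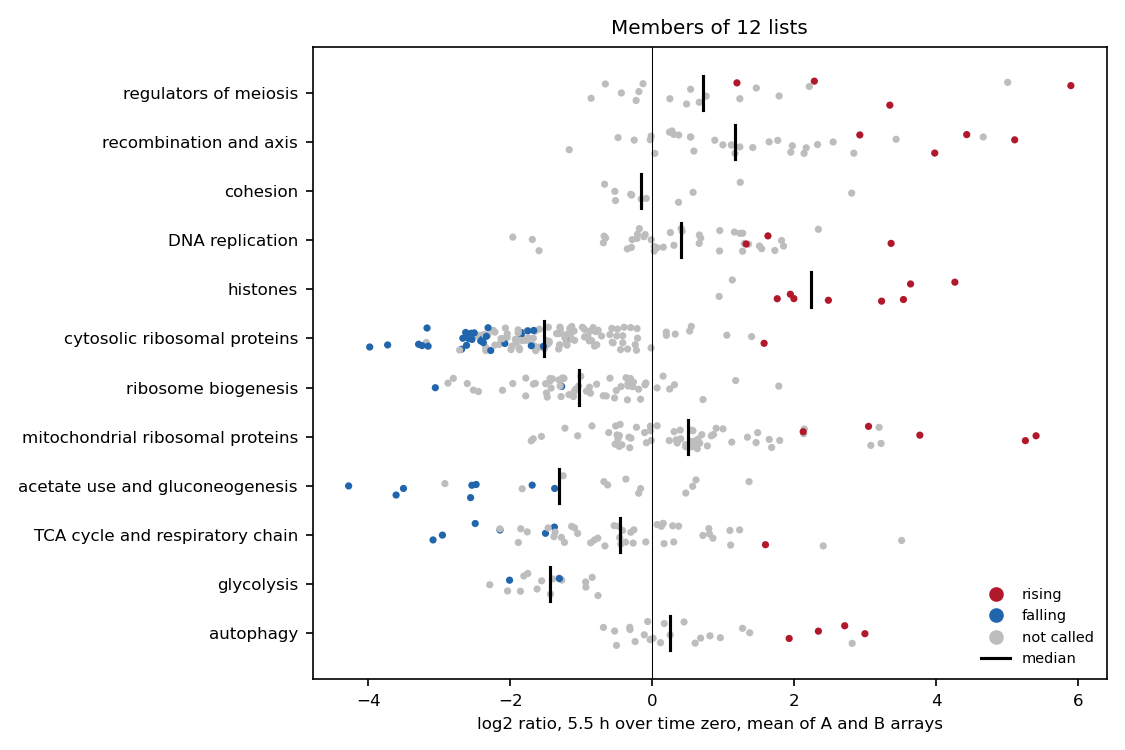
Mean log2 ratio of the A and B arrays at 5.5 h over time zero for every member of 12 lists with both values, with each list's median as a bar (vertical position within a list is random). The histones lie to the right of 0, and the cytosolic ribosomal proteins, ribosome biogenesis, acetate use and glycolysis mostly to the left.

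Most of the other metabolic and stress lists had shares near those of all genes. Autophagy was an exception: 4 of 25 rose, a larger share than the 6.36% of all genes, and 0 fell. ATG8, the protein tagged to the growing autophagosome, was at 2.01 and 3.99 (at least 4.51-fold). Its conjugating enzyme ATG3 was at 2.25 and 3.18 (at least 4.49-fold) and its protease ATG4 at 2.31 and 2.37. ATG18 was at 2.57 and 1.29, but the log2 value of the authors for it was -0.01. Of 34 proteasome genes 3 rose (8.82%, beside 6.36% of all genes) and 0 fell, PRE9 (1.54 and 1.67), RPT1 (1.27 and 1.66) and PRE8 (1.17 and 1.61). A rise needs a 5.5 h channel above the blanks on both arrays, which 22 of the 34 had, beside 1807 of all 6241 genes. The proteasome share is therefore not read as a result about the list. Of 30 nitrogen genes 2 rose and 2 fell (6.67% each): GLN1, glutamine synthetase, at 1.48 and 2.39 and CAR1, arginase, at 1.22 and 1.01 (1.99 on the 0.0 h A array), against PUT4 above and the ammonium permease gene MEP3 at -1.90 and -3.50.

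In amino acid synthesis 5 of 60 rose (8.33%) and 1 fell (1.67%), near the 6.36% and 2.92% of all genes, and the median was -0.15 over both arrays and 0.78 on A alone. SER33, of serine synthesis, was at 4.39 and 3.24, LEU1 at 3.46 and 1.20, ARG4 at 3.34 and 1.25 and SER1 at 1.58 and 1.16, with GLN1 the fifth, while ARG3 was at -1.08 and -1.46. Of 20 glycogen and trehalose genes 1 rose and 1 fell (5.0% each, beside 6.36% and 2.92% of all genes). PIG2, a regulatory subunit for glycogen synthase, rose (1.70 and 3.63) and GSY2, glycogen synthase, fell (-1.76 and -2.57). Of 34 heat shock and stress genes the chaperones SSA3 (3.35 and 3.62) and HSP82 (1.98 and 1.24, with 1.17 on the 0.0 h A array) rose and the wall gene SPI1 (-1.81 and -2.55) fell, close to the shares of all genes (5.88% and 2.94%, beside 6.36% and 2.92%).

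Markers of other cells that the cultures could hold were few above the blanks. Of 22 markers of budding cells, 1 rose (4.55%) and 2 fell (9.09%), beside 6.36% and 2.92% of all genes. EGT2 was at 1.62 and 1.62 (at least 1.69-fold) but read 2.10 and 0.67 on the 0.0 h arrays. CLN3 was at the values above and ASH1 at -1.57 and -2.98. The 5.5 h channel was above the blanks on both arrays for 2 of the 22 markers. Of 24 haploid mating markers 1 rose (4.17%, beside the same 6.36%) and 0 fell. That was STE4, a G protein subunit, at 3.36 and 4.04 (at least 2.60-fold), while its partner STE18 was at 3.22 and 6.18 and dim on A. The receptor genes STE2 (0.41 and -0.19) and STE3 (1.52 and 1.05) were not called. Whether cells outside the programme bear on any value was not tested.

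The times on either side share the time-zero RNA with 5.5 h, so their values are set side by side and not compared. The 397 genes that rose had medians of 0.01 on A and 0.00 on B (-0.001 before rounding) at 4.5 h, of 0.28 and 2.09 at 5.0 h, and of 2.07 and 0.09 at 6.0 h. So these genes were high on both arrays at 5.5 h, on the B array at 5.0 h and on the A array at 6.0 h. Before that, their medians were 0.22 on A and 1.13 on B at 3.5 h, and 0.50 and 0.15 at 4.0 h. The 4.5 h values therefore do not date the start of the rise. YNL205C read -0.67 and 7.63 at 5.0 h and 6.63 and 0.01 at 6.0 h, and SPO20 read -0.06 and 6.91 and then 7.97 and -0.36. The A and B arrays correlated with r = -0.01 at 5.0 h and r = -0.022 at 6.0 h, against 0.51 at 5.5 h. The cause was not tested.

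The 182 genes that fell had medians of -0.40 on A and -0.43 on B at 4.5 h, of -1.19 and -1.69 at 5.0 h, and of -1.09 and 0.17 at 6.0 h. URA1 read -3.16 and -5.44 at 5.0 h and -6.13 and 0.05 at 6.0 h. FBP1 read -1.71 and -4.05 and then -2.30 and -0.88. The falls were present on both arrays at 5.0 h, and at 6.0 h on A but not on B. At 3.5 h the medians of the 182 genes were -0.79 on A and -0.91 on B.

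**Figure D5:**
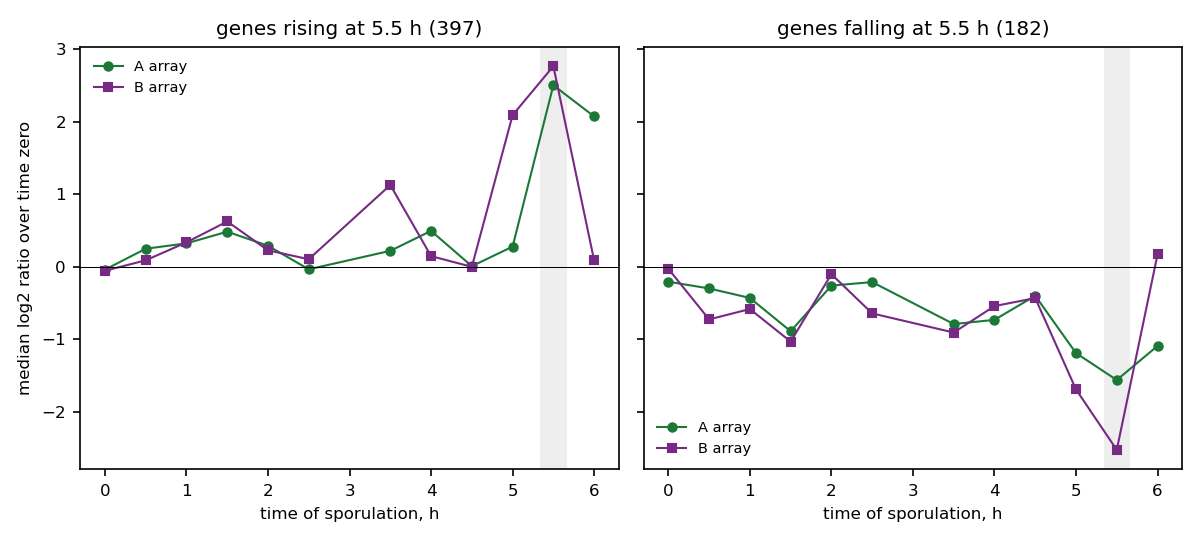
Median log2 ratio over time zero on the A array (green circles) and the B array (purple squares) at each of the 12 times, for the genes that rose (left) and fell (right) at 5.5 h, which chose them (grey band). At 5.5 h the medians are 2.50 and 2.77 for rising genes and -1.56 and -2.53 for falling genes. At 5.0 h and 6.0 h the rising genes are high on 1 array each, and at 3.5 h their median is 1.13 on B.

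The authors' series table gives 1 log2 ratio per gene for 5.5 h. It followed the mean of both arrays with r = 0.957 over 6103 genes, more closely than A alone (0.752) or B alone (0.896), and its median was 0.053. Its centring and scale are read from the values alone. It had the same sign for 389 of the 390 rising and 180 of the 181 falling genes it lists. That table describes the same sample and arrays, and the genes were chosen for changing the same way on both. The count is therefore not independent support. Reading frames that overlap a neighbour could share signal with it, which touches 10 called genes, among them LDO16 of the wall list (2.50 and 1.59; overlaps LDO45).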

How the data were processed

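Two-colour spotted arrays measured total RNA. The deposited intensity values per spot and dye were made by the authors from 2 scanned images per array, per the file headers; they were taken as background-subtracted because values below 0 occur, which the files do not state. Each array has 12614 gene spots and 250 blank ones (3XSSC). Spots marked U or Z, controls and values at or below 0 were left out. Spots marked S, which sit on bright spots, were kept, since the letters are not explained. Log2 ratios were computed in R 4.3.3 with limma 3.58.1 by loess (span 0.3, 4 iterations) within each array, and the spots of a gene were averaged.

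Direction follows the labels: Cy5 over Cy3 on A, turned on B. The headers list the time-zero image first on both arrays, which read as channel order would turn B; unturned, the arrays correlated at -0.51 and turned at 0.51. The deposited log2 values of the authors' series table served as an alternative.

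Lower bounds ("at least") compare single channels after loess and Aquantile, averaged over both arrays, with the dimmest value above the blanks. They are not limits on each array and are open to dye bias. Of the array identifiers, 5716 matched a locus tag and 57 a synonym in RefSeq's R64 table, and 520 are unmatched. Named genes were the 15 largest rises and falls by the smaller of the arrays, up to 6 called members per list, members called against their list, and all regulators; other members named in the text were picked after their values were seen. The members and the 22 lists were chosen with earlier results of these data known. The fit and call rule were run on simulated ratios with noise drawn for each spot alone. That setting lacks the disagreement between the real arrays, so it checks the computation and not the calls. The number of arrays limits the precision.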

Additional observations from a re-analysis of the deposited data

How the results depend on the processing

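No paired analysis was possible because each time is 1 pooled sample with no replicate numbers. With no limit from blank spots, 4011 genes had the same sign, 694 rose and 382 fell. The A array alone gave 650 rises and 305 falls and the B array alone 1607 and 1259, each with the 5.5 h or time-zero channel above the blanks on that array. At 1.5-fold 286 genes fell and at 3-fold 71; the authors' series table gave 323 falls. With both channels above the blanks on both arrays, an alternative added after the data were seen, 35 genes rose and 130 fell. Median centring in place of loess gave 436 rises and 125 falls, of which 387 and 122 were among those reported, with rises at 77.7% of calls against 68.6%. Leaving out spots marked S gave 288 and 130, and taking off the 0.0 h array of the same orientation gave 414 and 153. ATG18 was at -0.01 in the authors' table, against 1.93. Counting each list once under each alternative, 167 medians stayed within the spread of the arrays and 31 moved beyond it. Glycolysis, over all members with an A value, was at 0.01 on A alone. The mean of both arrays gave -1.43 over the 17 with both. Cohesion was at 0.24 on B alone (-0.15). The median also changed sign for amino acid synthesis (0.78 on A alone, -0.15), nitrogen use (-0.87 on B alone, 0.10) and budding markers (0.095 on B alone, -0.255). Heat shock was at -0.016 on A alone and -0.008 on B alone (0.062). Agreement in sign has no value under other folds, on a single array or in the authors' table. The dim time-zero channel of A limits which falls could be called.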

Other observations

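Some called genes outside the lists group by what they are known to do. The groups below were put together after the values were seen and then filled with their other members, so they are descriptions without a test, to be read beside the 6.36% of all genes that rose and the 2.92% that fell. SNARE proteins fuse membranes, and the prospore membrane grows by fusion of vesicles: of 24 genes, 9 rose and 0 fell, with a median of 1.17 and 16 above 0 on both arrays. Beside SPO20 these were NYV1 (3.43 and 4.94, at least 7.68-fold), SNC2 (3.36 and 3.55), YKT6 (3.87 and 2.44), SNC1 (3.75 and 1.69), SSO1 (1.62 and 3.63), VAM3 (2.13 and 2.21, at least 1.06-fold), VTI1 (1.17 and 2.84) and SEC22 (1.74 and 1.60). SSO2, the close relative of SSO1, was at 0.62 and 0.01 with both channels above the blanks. Of 16 genes of the anaphase-promoting complex and its activators 5 rose and 0 fell, with APC9 at 3.91 and 4.57 (at least 6.15-fold), APC11 at 4.36 and 2.47 (at least 2.22-fold), CDC27 at 2.30 and 4.24 (at least 6.11-fold) and CDH1 at 2.13 and 2.77 beside AMA1. Of 13 ubiquitin-conjugating enzyme genes 5 rose: UBC11, UBC6 (2.89 and 4.03), UBC9 (2.52 and 3.34), UBC1 (5.06 and 1.83) and UBC13 (1.38 and 1.55). Of 18 spindle pole body core genes 3 rose, SPC29 (6.78 and 4.67, at least 14.3-fold), BBP1 (3.53 and 3.41, at least 4.16-fold) and KAR1 (1.70 and 4.51, at least 4.24-fold), and 8 differed in sign between the arrays.

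Of 36 measured genes for wall proteins and enzymes of growing cells 18 fell and 1 rose, with 27 below 0 and 5 above 0 on both arrays and a median of -1.93. They include YGP1 (-2.50 and -4.41), SIM1 (-2.46 and -3.30), PST1 (-2.22 and -5.14) and CCW14 (-2.17 and -3.93) beside TIP1, NCW2, TOH1 and PIR1. The 1 that rose was TIR2 (3.74 on both arrays, at least 5.21-fold), and CWP1 was at 5.48 on A with no value on B. In the synthesis of UDP-N-acetylglucosamine, the building block of chitin, 3 of 4 genes rose, GNA1 (5.37 and 4.48, at least 7.14-fold), GFA1 (3.76 and 5.53, at least 4.99-fold; overlaps another reading frame) and QRI1 (2.51 and 3.07, at least 2.54-fold), and PCM1 was at 0.53 and 0.97. The largest ratio on any 5.5 h array was that of YKR005C, at 5.33 on A and 16.13 on B; its mean time-zero intensity on B was -3873, so the size of the B value has no meaning beyond a dim channel, and the bound was at least 23.9-fold. Of the 52 genes without both values, 48 had none on B, and 28 of those have both channels listed at 0 there. On A, 39 of the 48 were above the blanks at 5.5 h. Their median 5.5 h intensity on A was 663117 over the 48, against 17842 over all genes, so a value of 0 on B need not mean absent RNA.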
